A study of Mus musculus with 16 samples.

Results

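The major histone gene cluster of the mouse lies on chromosome 13, and its chromatin accessibility was measured here as counts over fixed peaks. Its members are all peaks of the shared count table that lie wholly inside a 2100 kb window around the cluster (build mm10), which gave 141 of the 82188 peaks, from chr13:21709851 to the peak ending at 23799851. The peaks come from Omni-ATAC libraries, in which a transposase cuts open chromatin and the cut sites are sequenced. The tested cells were HET CC (Smarca4+/-, 4 libraries) and WT CC (Smarca4+/+, 4 libraries), and the same genotypes labelled CB (4 libraries each). All 16 libraries came from spleens of C57BL/6 mice of 8-10 weeks. The labels do not spell out CB and CC, which are read here as centroblasts and centrocytes of the germinal center, and they give neither a sort gate nor what drives the loss of the Smarca4 allele. Whether each replicate is another animal is not stated, so every p-value here reflects the scatter of these libraries, whose source may be technical. In the main fit that scatter was estimated for each peak over all 16 libraries together.

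Histones are the proteins around which DNA is wound. The core histones H2A, H2B, H3 and H4 form the nucleosome, and the linker histone H1 binds where DNA enters and leaves it. The genes of this cluster are replication-dependent: they are transcribed as DNA is copied in S phase, mostly lack introns, and their mRNAs end in a stem-loop in place of a poly(A) tail. Their transcription is coordinated in nuclear histone locus bodies by NPAT, a substrate of cyclin E and CDK2. Centroblasts are the dividing cells of the germinal center dark zone and centrocytes the light zone cells that compete for antigen and T cell help. Smarca4 encodes BRG1, an ATPase of the SWI/SNF (BAF) chromatin remodelling complexes.

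The sequences below show what lay under the peaks that the comparisons turn on. They run from 250 bases before to 50 bases after the transcription start (RefSeq, GRCm38.p6), and 5 were chosen: the start regions of H1f2, H2ac6 and H4c8, where accessibility was higher in CC, of H3c4, which had the smallest p between HET CC and WT CC, and of H2ac10, a start region that was lower in WT CC. Capitals mark matches to 4 motifs, each searched on both strands. The TATA box was searched as TATAAA. The promoter element bound by NF-Y was searched as CCAAT. The H1 box, an element of linker histone promoters, was searched as AAACACA. The core of the octamer was searched as TTTGCAT. The letters of one motif do not contain another, and the H4c8 window held no match.
H1f2, chr13:23738557-23738856, strand +: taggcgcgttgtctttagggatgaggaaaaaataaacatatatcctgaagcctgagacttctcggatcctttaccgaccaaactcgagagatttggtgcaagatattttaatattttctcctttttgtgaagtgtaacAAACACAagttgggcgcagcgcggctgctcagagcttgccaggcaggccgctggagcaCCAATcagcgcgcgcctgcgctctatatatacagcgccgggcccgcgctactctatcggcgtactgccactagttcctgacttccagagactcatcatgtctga
H2ac6, chr13:23683910-23684209, strand -: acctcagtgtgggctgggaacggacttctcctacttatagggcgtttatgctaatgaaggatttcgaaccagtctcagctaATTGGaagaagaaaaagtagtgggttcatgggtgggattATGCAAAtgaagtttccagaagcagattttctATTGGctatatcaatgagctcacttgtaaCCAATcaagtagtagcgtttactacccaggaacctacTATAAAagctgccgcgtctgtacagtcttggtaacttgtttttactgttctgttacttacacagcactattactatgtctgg
H3c4, chr13:23575513-23575812, strand +: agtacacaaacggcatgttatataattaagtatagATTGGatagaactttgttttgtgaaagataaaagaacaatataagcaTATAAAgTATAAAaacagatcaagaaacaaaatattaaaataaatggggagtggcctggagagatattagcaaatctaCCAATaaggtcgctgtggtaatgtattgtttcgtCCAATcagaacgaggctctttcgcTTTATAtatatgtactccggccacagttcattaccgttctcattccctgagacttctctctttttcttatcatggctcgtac
H4c8, chr13:23530794-23531093, strand +: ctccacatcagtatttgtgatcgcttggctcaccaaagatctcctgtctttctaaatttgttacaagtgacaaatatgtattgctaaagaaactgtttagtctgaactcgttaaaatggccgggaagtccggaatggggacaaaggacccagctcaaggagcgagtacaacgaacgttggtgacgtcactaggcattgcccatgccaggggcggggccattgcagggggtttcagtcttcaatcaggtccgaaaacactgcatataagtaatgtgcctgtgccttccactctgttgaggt
H2ac10, chr13:23533625-23533924, strand +: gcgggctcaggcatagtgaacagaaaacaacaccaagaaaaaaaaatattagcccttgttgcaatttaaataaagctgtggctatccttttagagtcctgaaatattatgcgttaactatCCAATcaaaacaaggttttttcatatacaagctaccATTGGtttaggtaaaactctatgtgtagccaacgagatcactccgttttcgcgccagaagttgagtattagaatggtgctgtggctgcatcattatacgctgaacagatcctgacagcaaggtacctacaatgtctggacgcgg

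The promoter table held an entry for 49 of the 52 histone genes of the window. A CCAAT box stood in 41 of the 49 promoters (83.7%), against 37.4% of all 32851 promoters of the table. It was found in every H1, H2A, H2B and H3 promoter of the table's 49 and in 3 of 11 H4 promoters. TATAAA stood in 29 of the 49 (59.2%, against 13.6% of all promoters). The H1 box was found in 5 of 6 H1 promoters, against 7.18% of all promoters. Of the other families, 1 of 12 H2A, 1 of 13 H2B, 0 of 7 H3 and 0 of 11 H4 promoters held it. The octamer core, which OCT1 (Pou2f1) is known to bind at H2B genes, was found in 4 of 13 H2B and 4 of 12 H2A promoters, against 4.63% of all promoters. A match is a description of letters and not of a bound site.

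Of the 141 peaks, 63 had their middle within 1 kb of a histone gene, 17 were near another protein-coding gene, and 61 lay between genes. Of these 61, 50 had a tRNA gene within 1 kb and 11 had none. The window holds 52 histone genes (6 H1, 12 H2A, 14 H2B, 9 H3 and 11 H4), and 45 had a peak within 1 kb. Because the genes stand close together, 23 of the 63 histone peaks were within 1 kb of more than 1 histone gene, and each is reported under the nearest. The members form 2 blocks, with 55 peaks and 23 histone genes before and 86 peaks and 29 histone genes after a stretch of 1248 kb without a peak. All 75 vomeronasal receptor genes and pseudogenes (Vmn1r) of the window, genes of vomeronasal sensory neurons, lacked a peak within 1 kb. A further 79 tRNA genes are annotated in the window, of which 56 had a peak within 1 kb and 37 were overlapped by one.

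The 7 histone genes without a peak were H1f6, the testis linker histone, and H2ac23, H2ac24, H2bc23, H4bc24 (an H2B gene by its older name), H4c12 and H4c18. For the last 6, between 11.6% and 100% of the 50-base stretches of the promoter also occurred in another promoter of the table. Of the 41 promoters with no shared stretch, only that of H1f6 lacked a peak. Among the genes with a peak, H4c11 and H4c17 shared stretches with other promoters (11.6% and 94.0% of theirs). The sources used here do not give the handling of reads that map to several places, so peaks at near-identical copies are uncertain. The part of shared sequence in the missing peaks was not tested.

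Levels are given in CPM, a peak's count divided by its library total, with that total scaled by the trimmed mean of M-values (TMM). Histone peaks were among the more accessible of the table: their median level over all libraries was 27.5 CPM, against 6.62 CPM for all peaks and 19.1 CPM for the 17727 peaks within 1 kb of a gene end. Peaks whose middle lay within 250 bases of a histone transcription start (35 of the 63) had a median of 34.3 CPM, and the 24 farther ones 15 CPM. For the remaining 4 the start site of the nearest gene was not in the table. The 50 peaks between genes with a tRNA gene within 1 kb had a median of 11 CPM. Those near other protein-coding genes had 8.93 CPM and the remaining 11 peaks 4.1 CPM. The highest peaks of the 5 families were those of H1f2 for H1, H2ac6 for H2A, H2bc3 for H2B, H3c6 for H3 and H4c8 for H4, and their values follow with their comparisons.

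Library totals were 5310327 to 7474760 counts in HET CC, 3494356 to 3750936 in WT CC, 38716281 to 51011923 in HET CB and 31696941 to 38798802 in WT CB, so every CC library was shallower than every CB library. The median count per peak was 22 in the smallest library and 347 in the largest. The 8 peaks at Smarca4 summed to 120 to 138 CPM in HET CC, 134 to 160 CPM in WT CC, 148 to 154 CPM in HET CB and 155 to 166 CPM in WT CB. None was called between genotypes, and since the deleted part is not given these peaks do not check the labels. The share of counts within 1 kb of a gene end differed between groups as well, at 44.4% ± 0.67 in HET CC, 46.3% ± 0.60 in WT CC, 42.2% ± 0.45 in HET CB and 41.5% ± 0.096 in WT CB (SD, n = 4 each). Markers of other cell types moved with the CC label. The best peaks of 8 of 9 T cell markers with a peak were called higher in WT CC than in WT CB, and summed to 75.4 to 100 CPM in HET CC, 100 to 127 CPM in WT CC, 42.1 to 47.7 CPM in HET CB and 47.0 to 52.6 CPM in WT CB. For myeloid markers 7 of 7 with a peak were called higher in WT CC, with sums of 74.7 to 104 CPM in HET CC, 87.4 to 93.6 CPM in WT CC, 35.7 to 40.9 CPM in HET CB and 38.8 to 44.8 CPM in WT CB. For NK cell markers 3 of 5 were called higher and 1 lower. Lck, Lyz2, Mpo, S100a8, Klrk1, Ncr1 and Gzmb had no peak. Of the 10 genes listed for germinal center B cells, all of which had a peak, 3 were higher and 5 lower in WT CC. The 3 were Bcl6, Mybl1 and Cd38, and Cd38 is a gene that these cells hold at low levels in the mouse. Of 8 B cell markers, 0 were higher and 1 lower. Over all peaks, 30.2% were called higher and 27.7% lower in WT CC. The marker peaks were picked as the highest of their gene, so these sets are unlike. The part of these marker shifts in the differences between CC and CB below was not tested.

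Histone gene chromatin was more accessible in CC than in CB. Summed over the 63 histone peaks, the HET CC libraries stood at 2136, 1785, 2063 and 1816 CPM, the WT CC libraries at 2279, 2207, 2231 and 2210 CPM, the HET CB libraries at 1575, 1617, 1612 and 1583 CPM and the WT CB libraries at 1676, 1589, 1691 and 1603 CPM. Every CC library was above every CB library, and HET CC replicates 2 and 4 lay below the other CC libraries. In bulk libraries, a larger share of cells with the locus open and a more open locus in each cell cannot be told apart.

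**Figure D1:**
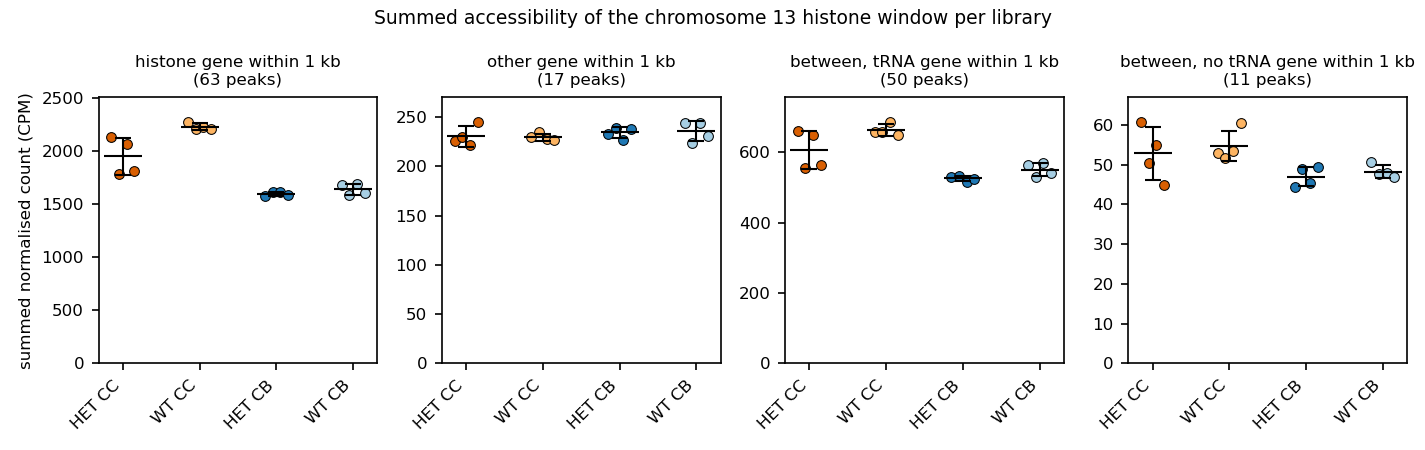
Summed normalised counts (CPM) of each class of peak in the histone window, 1 point per library, with the mean and SD of 4 libraries per group. The histone sums of the CC libraries, between 1785 and 2279 CPM, all lie above those of the CB libraries, between 1575 and 1691 CPM, while the sums of the 17 peaks at other genes overlap between groups.

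In WT cells, 39 of the 63 histone peaks rose and 6 fell in CC relative to CB (quasi-likelihood test in edgeR, with p adjusted by Benjamini-Hochberg over all 82188 peaks and called below 0.05), with a median log2 fold change of 0.45. Over all peaks, 57.9% were called, 30.2% higher and 27.7% lower, with a median of -0.01. Near gene ends 56.4% were called, 32.6% higher and 23.8% lower. Of the histone peaks, 71.4% were called, 61.9% higher and 9.52% lower. In HET cells, 36 histone peaks rose and 9 fell in CC (median 0.25), where 58.8% of all peaks were called, 30.8% higher and 28.1% lower, and near gene ends 57%, 28.7% higher and 28.4% lower. The 4 against 4 library values did not overlap for 39 of the 45 calls in WT cells and for 39 of the 45 in HET cells. Calling used the same values, and the share without overlap was not counted over all peaks. The 2 comparisons share no library. The median of the histone peaks stayed positive under every scaling tried. With all libraries thinned to the depth of the smallest, the calls were 37 higher and 7 lower in WT cells and 28 higher and 2 lower in HET cells.

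The rise was seen most often at the start sites. Of the 35 peaks centred within 250 bases of a start, 27 rose and 2 fell in WT CC (median 0.53), and 25 rose and 1 fell in HET CC (median 0.29). Of the 24 farther peaks, 9 rose and 4 fell in WT CC (median -0.10), and 8 rose and 8 fell in HET CC (median -0.09). The block after the gap had 28 of 40 peaks higher and 4 lower in WT CC (median 0.53), and the block before it 11 of 23 higher and 2 lower (median 0.21). The same counts for HET CC were 28 higher and 3 lower after the gap and 8 higher and 6 lower before it. Histone genes elsewhere in the genome had 17 peaks, of which 6 rose and 2 fell in WT CC (median 0.15). These are 35.3% and 11.8%, against 32.6% and 23.8% of peaks near gene ends. In HET CC 5 of the 17 rose and 3 fell (median 0.12), or 29.4% and 17.6%, against 28.7% and 28.4% near gene ends. These differences between subsets are counts and were not tested.

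**Figure D2:**
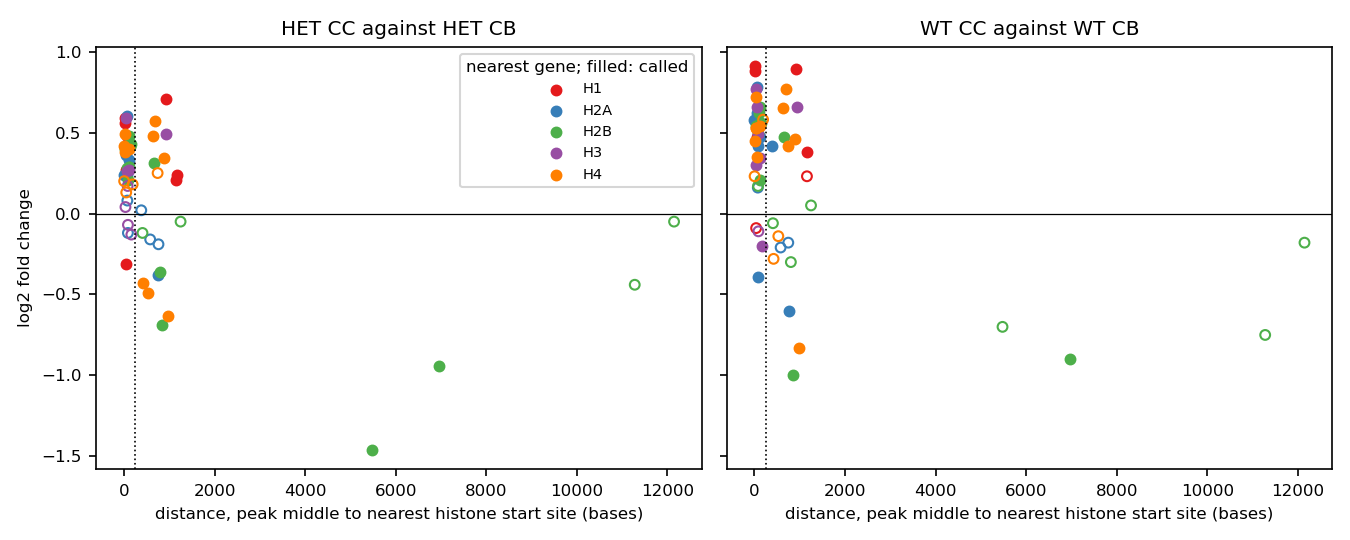
Log2 fold change of CC against CB for HET cells (left) and WT cells (right), against the distance of the peak's middle from the nearest histone start site in bases, for the 59 histone peaks whose nearest gene has a start site in the table. Colours give the family of the nearest gene, filled points were called and the dotted line marks 250 bases. Most of the called points left of that line are above 0, and the 4 peaks farthest from a start, all inside the annotated span of H2bc6, are below 0.

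The largest rises of single histone peaks were at H1f2, a linker histone gene. Of 8 H1 peaks, 6 rose and 0 fell in WT CC (median 0.51), and 7 rose and 1 fell in HET CC (median 0.37). At the start of H1f2, which encodes a somatic linker histone (chr13:23738538-23739038), the HET CC libraries held 42.5, 33.9, 33.4 and 30.7 CPM and the WT CC libraries 53.6, 49.2, 45.7 and 36.7 CPM. The HET CB libraries held 24.0, 24.3, 23.5 and 23.4 CPM there and the WT CB libraries 24.9, 22.6, 26.8 and 23.7 CPM. All CC libraries were above all CB libraries, with log2 fold changes of 0.56 (SE 0.088, adjusted p = 2.15e-07) in HET cells and 0.91 (SE 0.095, adjusted p = 4.36e-12) in WT cells. The neighbouring peak past the end of the gene (chr13:23739486-23739986), the highest of the family, averaged 73.7 ± 11.4 CPM in HET CC, 89.3 ± 9.25 CPM in WT CC, 44.8 ± 1.67 CPM in HET CB and 48.3 ± 3.21 CPM in WT CB (SD, n = 4 each). Its log2 fold change was 0.71 (SE 0.071) in HET and 0.89 (SE 0.076) in WT cells. The start of H1f4 rose by 0.59 in HET and 0.88 in WT cells and that of H1f1 by 0.48 and 0.54, while the start of H1f5 fell in HET CC (-0.31, adjusted p = 0.0097) and stood at -0.09 in WT CC (adjusted p = 0.549). The last 3 starts were chosen for mention after their values were seen.

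Among the 11 H2A peaks, 6 rose and 2 fell in WT CC (median 0.42, and 0.17 under the scaling that lowered it most), and 5 rose and 1 fell in HET CC (median 0.08). H2ac6 carried the H2A peak with the highest level (chr13:23683766-23684266, over its start). Its libraries held 78.1, 70.8, 71.4 and 69.7 CPM in HET CC, 88.7, 87.1, 82.0 and 80.2 CPM in WT CC, 48.7, 46.0, 48.7 and 47.1 CPM in HET CB and 50.5, 49.3, 47.7 and 49.7 CPM in WT CB. The CC and CB values were apart in both genotypes, with log2 fold changes of 0.60 (SE 0.059, adjusted p = 4.87e-13) in HET and 0.78 (SE 0.064, adjusted p = 1.88e-15) in WT cells. H2ac10 went the other way: its start region (chr13:23533537-23534037) averaged 27.5 ± 2.80 CPM in HET CC, 23.0 ± 2.96 CPM in WT CC, 29.6 ± 1.1 CPM in HET CB and 30.1 ± 1.03 CPM in WT CB. It fell in WT CC (log2 -0.39, SE 0.10, adjusted p = 0.000844), while in HET CC the value was -0.12 (adjusted p = 0.229). At H2ac15 the start region rose by 0.58 in WT CC, and a peak centred 763 bases past the start fell by 0.60 (adjusted p = 0.0032), a call lost under loess offsets.

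For H2B, 9 of 19 peaks rose and 2 fell in WT CC (median 0.17), and 10 rose and 4 fell in HET CC (median 0.21). The highest, over the start of H2bc3 (chr13:23746330-23746830), averaged 69.1 ± 9.90 CPM in HET CC, 75.6 ± 4.28 CPM in WT CC, 50.9 ± 1.01 CPM in HET CB and 51.1 ± 1.49 CPM in WT CB. It rose by 0.43 (SE 0.066) in HET and 0.56 (SE 0.072) in WT cells. The H2B falls lay away from start sites. A peak 843 bases before the start of H2bc14 (chr13:21720951-21721451) held 6.88, 8.31, 4.34 and 7.14 CPM in HET CC, 7.23, 3.53, 9.02 and 3.83 CPM in WT CC, 10.4, 11.1, 10.4 and 12.1 CPM in HET CB and 12.1, 11.1, 13.2 and 10.9 CPM in WT CB. Every CC library was below every CB library, with changes of -0.69 (SE 0.16, adjusted p = 0.000166) in HET and -1.0 (SE 0.20, adjusted p = 1.8e-05) in WT cells, and the start of the same gene rose by 0.29 and 0.21. Within the long annotated span of H2bc6, a peak 6959 bases from its nearest start fell by 0.94 in HET and by 0.90 in WT CC. Another peak of that span, 5479 bases from a different start that is nearest to it, fell by 1.46 in HET CC (adjusted p = 9.96e-05). Its value in WT CC was -0.70 (adjusted p = 0.0671). After thinning to the smallest library neither HET call remained (log2 -0.82 and -1.17).

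Of 10 H3 peaks, 8 rose and 1 fell in WT CC (median 0.53), and 6 rose and 0 fell in HET CC (median 0.26). The peak over H3c7, also within 1 kb of H2bc9 (chr13:23544100-23544600), held 58.7, 43.9, 53.8 and 44.1 CPM in HET CC, 59.8, 63.0, 58.9 and 62.7 CPM in WT CC, 30.9, 31.8, 30.0 and 30.2 CPM in HET CB and 32.2, 33.8, 34.3 and 32.9 CPM in WT CB. The groups were apart in both genotypes, and the peak rose by 0.70 (SE 0.073, adjusted p = 4.58e-12) in HET and by 0.87 (SE 0.079, adjusted p = 4.69e-14) in WT cells. The highest H3 peak, over the start of H3c6 (chr13:23562176-23562676), rose by 0.59 (SE 0.079) in HET and 0.77 (SE 0.086) in WT cells, to 61.7 ± 12.1 CPM in HET CC and 72.1 ± 7.24 CPM in WT CC, against 40.5 ± 2.38 CPM in HET CB and 42.1 ± 2.26 CPM in WT CB. The 1 H3 peak that fell was at H3c8 (-0.20, adjusted p = 0.047, in WT CC), named after its value was seen, and this call was lost in 7 of the 8 fits that left out 1 library.

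Of 15 H4 peaks, 10 rose and 1 fell in WT CC (median 0.46), and 8 rose and 3 fell in HET CC (median 0.34). The H4 peak with the highest level covered the start of H4c8 (chr13:23530821-23531321), with 52.6, 41.3, 52.9 and 48.0 CPM in HET CC, 74.2, 51.2, 64.3 and 57.5 CPM in WT CC, 34.5, 38.4, 39.8 and 36.1 CPM in HET CB and 38.2, 36.3, 38.2 and 37.4 CPM in WT CB. It rose by 0.38 (SE 0.076, adjusted p = 2.67e-05) in HET and by 0.72 (SE 0.083, adjusted p = 7.86e-11) in WT cells, and the peak 697 bases past the start rose by 0.57 and 0.77. A peak 979 bases past the start of H4c1 (chr13:23760020-23760520) fell by 0.63 (SE 0.16, adjusted p = 0.000527) in HET and by 0.83 (SE 0.19, adjusted p = 0.000173) in WT CC. At H4c9 a peak 529 bases past the start fell in HET CC (-0.49, SE 0.11, adjusted p = 0.000119), to 13.4 ± 1.05 CPM in HET CC against 18.9 ± 0.899 CPM in HET CB, and the value in WT CC was -0.14 (adjusted p = 0.333).

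**Figure D3:**
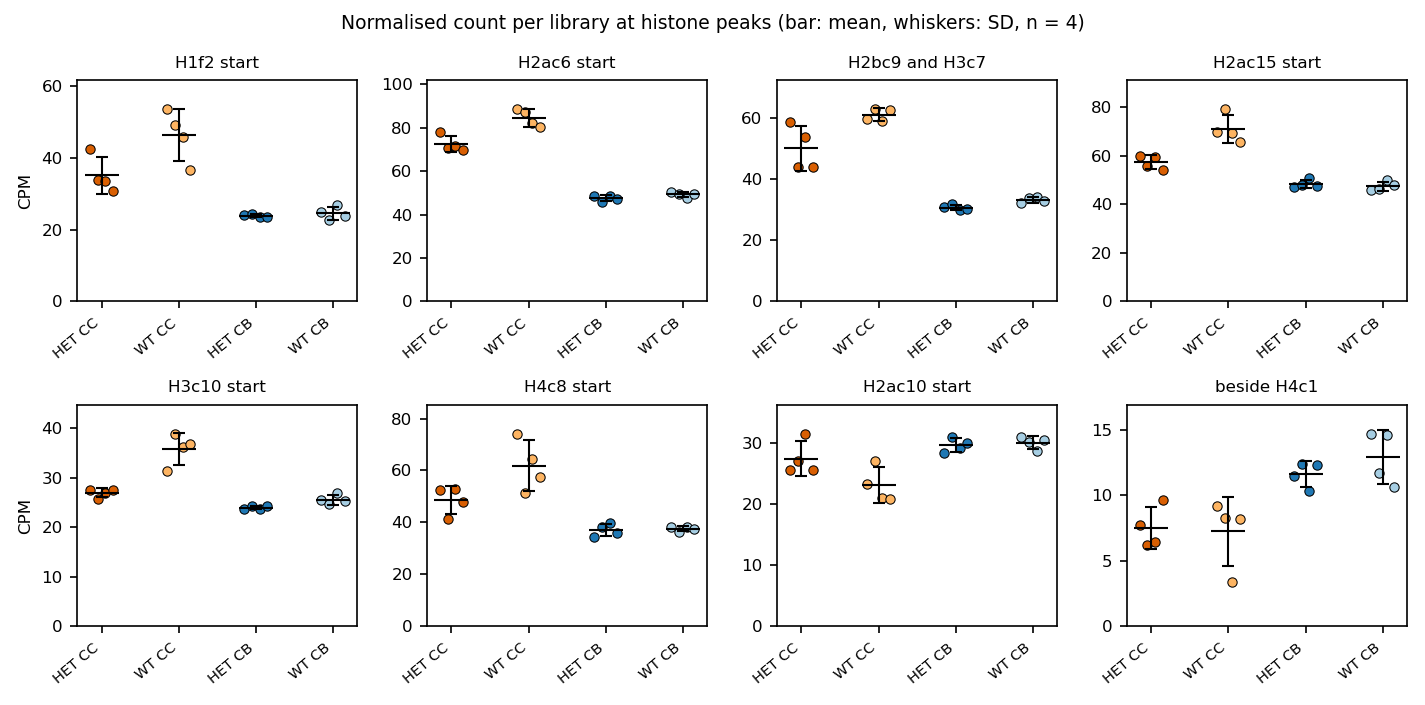
Normalised counts (CPM) per library at 8 histone peaks, with the mean and SD of 4 libraries per group (HET CC, WT CC, HET CB, WT CB). The first 6 peaks are higher in CC, for example H2ac6 with 69.7 to 88.7 CPM in CC and 46.0 to 50.5 CPM in CB, and the last 2, at the start of H2ac10 and beside H4c1, are lower in WT CC.

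Genes that control replication-dependent histone genes had peaks too. Each of the 19 listed genes had a peak, and its highest peak was read. It rose for 13 genes and fell for 1 in WT CC (median 0.32, against 0.03 over all peaks near gene ends). In HET CC it rose for 12 and fell for 1 (median 0.25, against -0.02). Of all peaks near gene ends, 32.6% were called higher and 23.8% lower in WT CC, and 28.7% and 28.4% in HET CC. The peaks near gene ends were not picked as the highest of their gene, so these medians and shares come from unlike sets. Read in the same way, histone genes outside the replication-dependent set had medians of 0.26 in WT CC and 0.16 in HET CC. Those of the genes listed for germinal center B cells were -0.38 and -0.25. Ccne1, which encodes cyclin E1, held 68.5 ± 8.51 CPM in HET CC, 80.2 ± 4.31 CPM in WT CC, 47.9 ± 1.85 CPM in HET CB and 49.0 ± 2.52 CPM in WT CB, and rose by 0.51 (SE 0.066) in HET and 0.71 (SE 0.071) in WT cells. Pou2f1, which encodes OCT1, rose by 0.52 and 0.56, and Casp8ap2 (FLASH), which takes part in histone mRNA processing, by 0.44 and 0.49. Eri1, an exonuclease that trims histone mRNA ends, rose by 0.34 and 0.51, and Hinfp, an activator of H4 genes, by 0.23 and 0.47. Npat itself rose by 0.17 in HET and 0.32 in WT cells. The 1 gene that fell was Cdk2 (-0.40 in HET and -0.58 in WT cells). None of the 19 was called between genotypes, where 2.06% of all peaks were called in CC and 0.129% in CB.

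Histone genes outside the replication-dependent set were mixed. Of the 10 of 11 such genes with a peak, 6 rose and 2 fell in WT CC, and 5 rose and 2 fell in HET CC. Of all peaks near gene ends, not picked as the highest of their gene, 32.6% were higher and 23.8% lower in WT CC. The same shares in HET CC were 28.7% and 28.4%. The variants H2az1 and H3f3a rose by 0.42 and 0.52 in HET and by 0.59 and 0.63 in WT cells. Both genes that fell encode linker histones: H1f0 changed by -0.29 in HET and -0.63 in WT cells, and H1f10 by -0.88 and -1.40. H1f10 held 9.34 ± 1.33 CPM in HET CC, 6.30 ± 2.10 CPM in WT CC, 17.3 ± 0.151 CPM in HET CB and 16.7 ± 1.13 CPM in WT CB.

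Between the genotypes, differences were fewer. In CC, 10 of the 63 histone peaks and 11 of the 141 members were lower in HET than in WT, and 0 were higher, where 2.06% of all peaks were called, 1.08% higher and 0.979% lower. Near gene ends 2.38% were called, 0.609% higher and 1.77% lower. The median of the 63 peaks was -0.21, against 0.00 for all peaks and -0.04 near gene ends, and 8 of the 10 calls were among the 35 start-site peaks. By family, 2 of 8 H1, 3 of 11 H2A, 2 of 19 H2B, 2 of 10 H3 and 1 of 15 H4 peaks were lower. This comparison shares its libraries with both CC against CB comparisons above.

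The calls between HET CC and WT CC rest on few libraries. Their p-values in the main fit use a spread estimated over all 16 libraries, CB included. The SD of the summed histone peaks was 176 CPM in HET CC, 33.3 CPM in WT CC, 20.9 CPM in HET CB and 51.2 CPM in WT CB. Without HET CC replicate 2, or without replicate 4, only 1 histone peak was called, and with HET CC replicates 1 and 3 alone, a choice made after the data were seen, 0 were called. The histone median was -0.174 without replicate 2, -0.172 without replicate 4 and -0.086 with replicates 1 and 3 alone. The calls over all 82188 peaks were fewer in these fits as well, at 338, 360 and 1, against 1694 with all libraries. Leaving out WT CC replicate 1, 2 or 3 gave 3, 2 and 6 histone calls, and leaving out HET CC replicate 1 gave 16. Fitting only the 8 CC libraries gave 0 histone calls, with the median at -0.196 and 186 calls over all peaks, while loess offsets gave 2, thinned libraries 3, and total counts or TMM factors from peaks near gene ends 5 each. In each of these settings 0 histone peaks were called higher in HET CC. HET CC replicates 2 and 4 also had lower shares of the TMM-scaled total near gene ends than the other CC libraries, at 43.7% and 43.9%. Their TMM factors, 1.014 and 1.012, lowered these shares. The summed T cell markers were lower in HET CC as well (75.4 to 100 CPM, against 100 to 127 CPM in WT CC). Of the 9 T cell markers 0 were called, where 0.979% of all peaks were called lower. Of 10 germinal center markers, 2 were called higher in HET CC, against 1.08% of all peaks. The part of these shifts in the difference was not tested.

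The smallest p was at the start of H3c4 (chr13:23575444-23575944), with 27.0, 25.6, 33.2 and 28.2 CPM in HET CC and 38.9, 36.2, 42.0 and 41.6 CPM in WT CC. The CC groups did not overlap, and the log2 fold change was -0.49 (SE 0.10, adjusted p = 0.00748). In CB the same peak held 23.7 ± 0.606 CPM in HET and 25.1 ± 1.39 CPM in WT libraries. This was the 1 member called with every single CC library left out in turn, though not with the CC libraries fitted alone. H2ac15 (start region, chr13:21753662-21754162) held 59.9, 55.8, 59.5 and 54.0 CPM in HET CC and 69.5, 79.2, 69.1 and 65.7 CPM in WT CC. These groups were apart as well, with a log2 fold change of -0.31 (SE 0.076, adjusted p = 0.0212). H3c10 (chr13:21717296-21717796) held 27.5, 25.7, 27.0 and 27.6 CPM in HET CC and 31.4, 38.9, 36.1 and 36.9 CPM in WT CC, also without overlap (-0.41, SE 0.10, adjusted p = 0.0222). At the start of H4c8, whose values are given above, the CC groups overlapped, with a fold change of -0.36 (SE 0.091, adjusted p = 0.027). Over the 11 called members, 5 had groups that did not overlap, a share that was not counted over all peaks either.

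**Figure D4:**
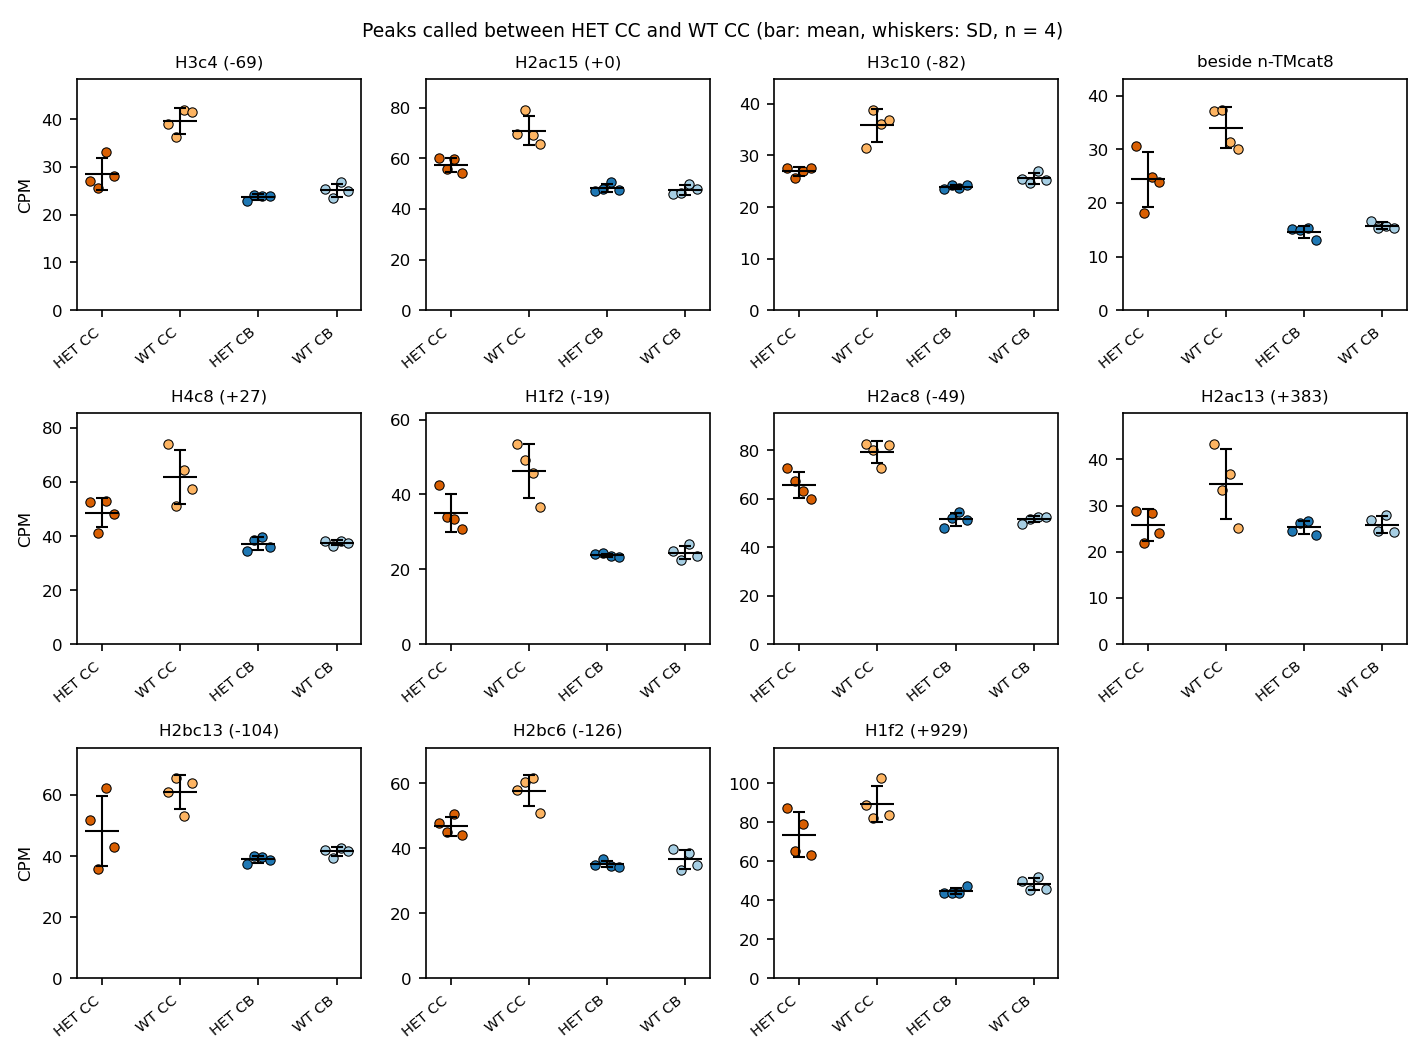
Normalised counts (CPM) per library at the 11 peaks of the window called between HET CC and WT CC, ordered by adjusted p, with the mean and SD of 4 libraries per group. Numbers in parentheses are the distance of the peak's middle from the start site in bases. HET CC lies below WT CC in each mean, with overlapping libraries at 6 of the 11 peaks, and HET CB and WT CB lie close together.

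In CB no member was called between HET and WT, where 0.129% of all peaks were called, 0.00243% higher and 0.127% lower. At an unadjusted p below 0.05 there were 5 members (3.55%) and 0 histone peaks, against 7.9% of all peaks, and the DESeq2 Wald test also called 0 members. The histone median was -0.05, against -0.01 for all peaks. The 3 members with the smallest p were not histone peaks: a peak beside n-TGgcc7, a glycine tRNA gene (-0.22, SE 0.082, adjusted p = 0.411), one beside n-TScga1, a serine tRNA gene (-0.25, SE 0.11, adjusted p = 0.537), and one within Hfe, an iron regulator (-0.26, SE 0.12, adjusted p = 0.543).

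Whether the genotype difference itself differed between CC and CB was tested as an interaction, the genotype difference in CC less the same difference in CB. No member was called, where 0.159% of all peaks were (0.128% higher and 0.0316% lower), and 19 members (13.5%) and 14 histone peaks (22.2%) had an unadjusted p below 0.05, against 11.4% of all peaks. The DESeq2 Wald test called 3 histone peaks, with 1413 calls over all peaks. Leaving out HET CC replicate 3 gave 1 histone call in edgeR, at H3c4 (-0.48, adjusted p = 0.0468), with 473 calls over all peaks, against 131 with all libraries. The histone median was -0.16, and -0.026 with HET CC replicates 1 and 3 alone. The smallest p was at H2ac15, with -0.33 (SE 0.093, adjusted p = 0.105), followed by H3c4 at -0.40 (SE 0.12, adjusted p = 0.145) and the peak within Hfe at 0.82 (SE 0.26, adjusted p = 0.156).

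The 17 peaks at other protein-coding genes of the window went down more often than up in CC. In WT CC 3 rose and 8 fell (median -0.28), and in HET CC 3 rose and 6 fell (median -0.05). As shares, 17.6% rose and 47.1% fell in WT CC, against 30.2% and 27.7% of all peaks. In HET CC 17.6% rose and 35.3% fell, against 30.8% and 28.1% of all peaks. Abt1, which encodes an activator of basal transcription, held 29.2, 29.2, 34.5 and 28.6 CPM in HET CC, 35.3, 36.5, 32.1 and 33.7 CPM in WT CC, 20.2, 20.2, 19.0 and 20.1 CPM in HET CB and 20.6, 18.7, 22.3 and 20.9 CPM in WT CB (chr13:23423735-23424235). Its CC libraries were all above its CB libraries, with rises of 0.61 (SE 0.086, adjusted p = 2.16e-08) in HET and 0.74 (SE 0.097, adjusted p = 3.26e-09) in WT cells, and another of its 3 peaks rose by 0.47 and 0.52. Trim38, a regulator of innate immune signalling, rose by 0.84 in HET and 0.96 in WT cells at low levels, with 2.98 ± 0.309 CPM in HET CC, 4.10 ± 1.82 CPM in WT CC, 1.65 ± 0.201 CPM in HET CB and 2.09 ± 0.25 CPM in WT CB. The WT call was lost without WT CC replicate 1 (log2 0.67), both calls were lost under loess offsets, and the HET call was lost with thinned counts (log2 0.68). Prss16, a serine protease known from the thymic cortex, fell at both of its peaks, by 0.32 and 0.61 in HET and by 0.43 and 0.61 in WT cells. Btn1a1, a butyrophilin, fell at 2 of its 4 peaks in HET and at 3 in WT cells. At the one with the smallest p the falls were 0.64 (adjusted p = 0.000382) in HET and 0.80 (adjusted p = 0.000346) in WT cells. None of the 17 was called between genotypes, where 2.06% of all peaks were called in CC and 0.129% in CB.

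Transfer RNA genes are transcribed by RNA polymerase III and are interspersed with the histone genes. Of the 50 peaks within 1 kb of a tRNA gene and of no protein-coding gene, 18 rose and 9 fell in WT CC (median 0.11). In HET CC 19 rose and 9 fell (median 0.02). Peaks near both a tRNA gene and a protein-coding gene, the H4c8 start among them, are counted in the other classes. As shares, 36% rose and 18% fell in WT CC, against 30.2% and 27.7% of all peaks. In HET CC 38% rose and 18% fell, against 30.8% and 28.1%. Near tRNA genes elsewhere in the genome, 94 of 224 peaks rose and 40 fell in WT CC (42.0% and 17.9%). That set keeps peaks at protein-coding genes, which the 50 leave out, so the 2 sets are unlike. The strongest rise of the class in WT CC was over n-TMcat8, a methionine tRNA gene (chr13:21974819-21975319). Its libraries held 30.6, 18.2, 24.9 and 23.9 CPM in HET CC, 37.2, 37.4, 31.3 and 30.1 CPM in WT CC, 15.1, 15, 15.4 and 13 CPM in HET CB and 16.7, 15.4, 15.7 and 15.3 CPM in WT CB. CC was above CB in both genotypes, by 0.72 (SE 0.11, adjusted p = 4.5e-08) in HET and 1.11 (SE 0.11, adjusted p = 2.64e-12) in WT cells. This was also the 1 peak outside the histone class that was lower in HET CC than in WT CC (-0.49, SE 0.12, adjusted p = 0.0249), and there the groups overlapped. The peak next to it rose by 0.60 and 0.80.

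Other tRNA peaks fell. The peak beside n-TAagc11, an alanine tRNA gene at the far edge of the vomeronasal gap (chr13:23298762-23299262), held 1.72, 1.58, 1.89 and 2.79 CPM in HET CC, 1.11, 1.18, 2.54 and 2.46 CPM in WT CC, 6.14, 5.86, 6.24 and 5.56 CPM in HET CB and 5.57, 4.49, 5.26 and 5.90 CPM in WT CB. All CC values were below all CB values, with changes of -1.58 (SE 0.23, adjusted p = 2.56e-08) in HET and -1.53 (SE 0.29, adjusted p = 6.86e-06) in WT cells. Over n-TYgta3, a tyrosine tRNA gene, the change was -0.62 in HET and -1.05 in WT cells, and over n-TSaga5, a serine tRNA gene, -0.69 and -0.75. Over n-TAagc7, another alanine tRNA gene, it was -0.56 (adjusted p = 0.034) in HET and -1.49 (adjusted p = 0.000134) in WT cells. The falling tRNA peaks named here were low, with group means below 10 CPM in all 4 groups.

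The largest fold changes of the window were at 2 of the 11 peaks between genes with no tRNA gene within 1 kb. As a class these 11 peaks were mixed. In WT CC 3 rose and 2 fell (27.3% and 18.2%, median -0.17), against 30.2% and 27.7% of all peaks. In HET CC 4 rose and 4 fell (36.4% each, median -0.14), against 30.8% and 28.1%. A peak 5514 bases from Hfe, in the space between Hfe and H1f2 (chr13:23716118-23716618), held 8.77, 5.01, 6.42 and 5.12 CPM in HET CC and 6.95, 7.65, 4.79 and 9.58 CPM in WT CC. In HET CB it held 0.717, 0.843, 0.441 and 0.486 CPM and in WT CB 0.872, 0.690, 0.660 and 1.25 CPM. It was low in every CB library and higher in every CC library, with log2 fold changes of 3.33 (SE 0.29, adjusted p = 8.62e-15) in HET and 3.05 (SE 0.30, adjusted p = 1.01e-12) in WT cells. A peak 7340 bases from Slc17a2, the last of the window (chr13:23799351-23799851), held 7.05, 6.46, 5.66 and 2.17 CPM in HET CC, 2.50, 4.71, 5.64 and 5.75 CPM in WT CC, 1.1, 0.779, 0.971 and 0.856 CPM in HET CB and 0.925, 1.32, 1.22 and 1.28 CPM in WT CB. It rose by 2.52 (SE 0.28, adjusted p = 3.7e-11) in HET and by 1.97 (SE 0.32, adjusted p = 5.92e-07) in WT cells. Over the 9 T cell markers with a peak, the log2 fold changes ran from -0.27 at Cd4 to 3.54 at Cd3e in HET cells and from -0.19 at Cd4 to 3.37 at Cd3e in WT cells, with 8 called higher in each. Their part in these 2 rises was not tested. Neither peak was called between genotypes, at -0.21 and 0.20 in CC.

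**Figure D5:**
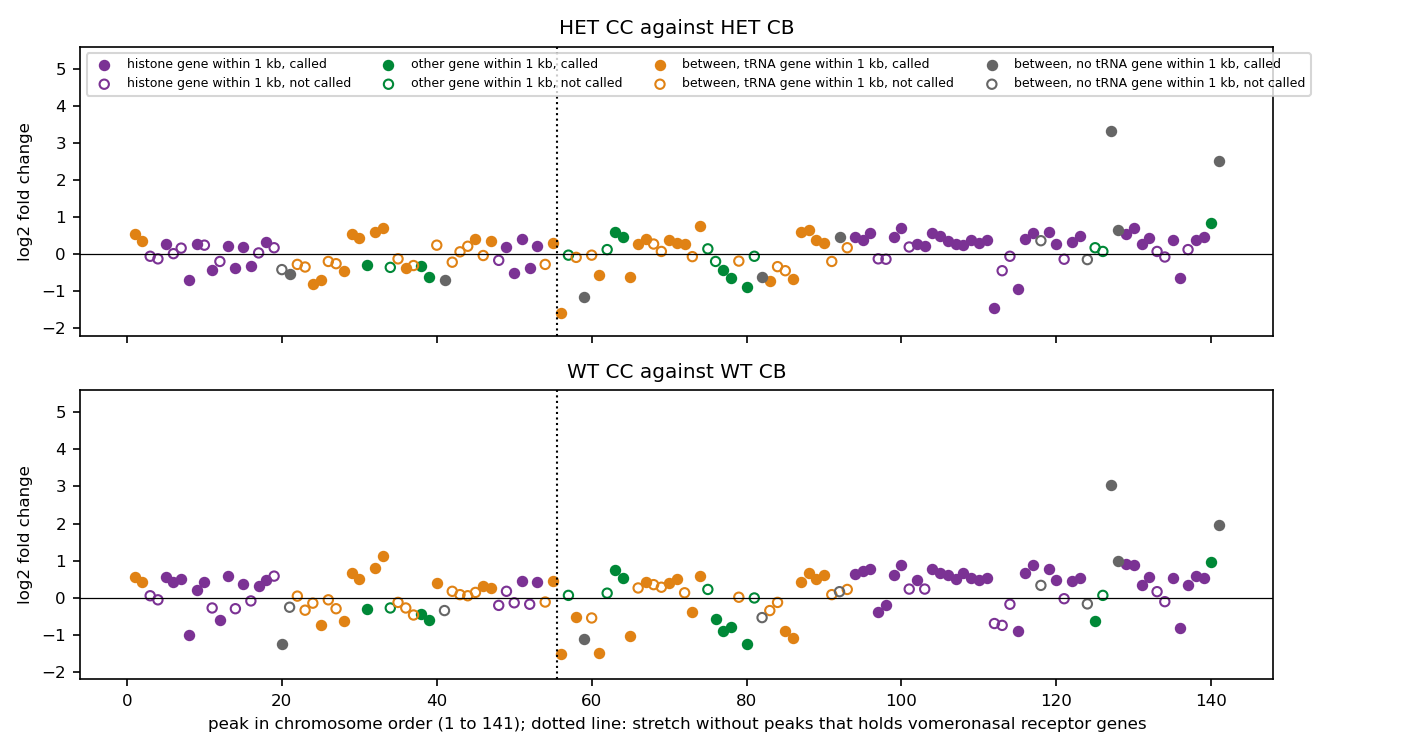
Log2 fold change of CC against CB at the 141 peaks in chromosome order, for HET cells (above) and WT cells (below), coloured by class and filled where called. The dotted line marks the 1248 kb without a peak. Histone peaks after the gap lie mostly above 0, and the 2 highest points, at 3.33 and 2.52 in HET and 3.05 and 1.97 in WT cells, are peaks between genes.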

How the data were processed

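Accessibility was measured in 16 Omni-ATAC libraries. The values are raw counts per peak, deposited by the authors in 1 table with 82188 peaks shared by all libraries. Per the submitters' processing notes, FastQC, BWA, deepTools, R 4.2.1 and mm10 were used. The sources used here name no peak caller or counting tool.

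All 16 libraries were fitted at once in edgeR 4.0.16 (R 4.3.3), with TMM scaling, filterByExpr (0 peaks removed), 1 coefficient per group, robust quasi-likelihood tests and Benjamini-Hochberg adjustment over all peaks. An adjusted p below 0.05 is a call. The 5 comparisons were HET against WT in CC and CB, CC against CB in each genotype, and the interaction. The fit was also run on simulated counts, and the outcome of that run is not reported here. Replicate numbers were not used for pairing. Alternatives were other scalings and filters, DESeq2 1.42.0, thinned counts, blocks, and fewer libraries.

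Gene spans and promoters come from RefSeq (GRCm38.p6). A peak belongs to a gene if its middle lies within 1 kb of the span. Named peaks are the highest of each family, up to 4 histone peaks and 3 of each other class per direction and comparison by smallest p, and 3 by smallest p where none was called. The members and gene lists were chosen with earlier results of these data known.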

Additional observations from a re-analysis of the deposited data

Results flagged for a closer look

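In 11 of the 160 groups of 4 libraries examined, 1 library stood far from the other 3 by Dixon's criterion. Chance alone flags about 1 group in 20, so these values are given without explanation. In HET CC, replicate 1 was lowest at the peak within Hfe (5.68 CPM, others 9.10 to 9.31), replicate 3 was highest at the Abt1 peak described above (34.5 CPM, others 28.6 to 29.2) and lowest at the Prss16 peak that fell most (10.8 CPM, others 13.7 to 13.9). In WT CC, replicate 3 was lowest at the peak beside H4c1 (3.38 CPM, others 8.21 to 9.17). Replicate 2 was lowest at the peak in the H2bc6 span that lies 6959 bases from its nearest start (1.77 CPM, others 2.74 to 2.82). In HET CB, replicate 4 was highest past the end of H1f2 (47.3 CPM, others 43.9 to 44.0) and lowest over n-TMcat8 (13 CPM, others 15 to 15.4), replicate 1 was lowest at H3c4 (22.8 CPM, others 23.9 to 24.1), replicate 3 was lowest at the same Abt1 peak (19.0 CPM, others 20.1 to 20.2) and replicate 2 was highest over n-TAagc7 (5.56 CPM, others 4.28 to 4.39). In WT CB, replicate 3 was highest over n-TAagc7 (5.13 CPM, others 4.33 to 4.36).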

How the results depend on the processing

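Of the peaks that the naming rule picked for a comparison, none changed direction in that comparison under any alternative run. The direction of other values named in the text was not followed. The counts of called members in CC against CB stayed within 1.5 times under every alternative: without 1 library they ran from 83 to 87 in WT and from 76 to 91 in HET cells (main counts 88 and 90), and the histone counts from 44 to 46 and from 39 to 46 (main count 45 in each). For HET CC against WT CC, 11 members and 10 histone peaks were called. Total counts and TMM from peaks near gene ends gave 6 members and 5 histone peaks each, loess offsets 3 and 2, thinned counts 3 and 3, only the groups compared 0 and 0, DESeq2 19 and 16, and HET CC libraries 1 and 3 only 0 and 0. Over all peaks the calls moved too, with 1694 in the main fit and, in the same order of settings, 1658, 1543, 1242, 835, 186, 4662 and 1. Without 1 CC library the counts ran from 1 to 19 members and from 1 to 16 histone peaks. For the interaction, where 0 were called, DESeq2 gave 3 members, all 3 at histone genes, and leaving out 1 library gave 0 to 1. The cause was not tested, beyond the lower depth of thinned counts and the fewer libraries of reduced fits. Counting peaks within 500 or 2000 bases as histone peaks kept each count within 1.5 times. Same-numbered libraries deviated from their group means with correlations of -0.12 to 0.0736, below the 0.1 required for pairing in every pair. With the replicate block, 9 members and 8 histone peaks were called in HET CC against WT CC, 85 and 44 in WT CC against WT CB, 89 and 45 in HET CC against HET CB and 0 in the others. Between WT CC and WT CB every library correlated best with its own number. In the whole table, HET CB against WT CB gave 106 calls in the main fit, 1076 with only the groups compared, 647 with DESeq2 and 0 after thinning. The median count per peak was as low as 22 in CC and at least 215 in CB.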
